A study of Mus musculus with 6 samples.

Results

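The T and NK cell genes described here are 10 genes of mature lymphocytes, read in long-term hematopoietic stem cells (LT-HSCs). They were chosen by name, and each was matched to its probe set by the platform's gene symbol. All 10 were measured, each by 1 probe set, among 19938 genes that a probe set with a single symbol represents. LT-HSCs of wild-type (WT) C57BL/6 mice were set against those of Lxn-/- mice of the same strain, in which exons 2 to 4 of latexin are deleted and the protein is lacking. All mice were females aged 8 to 12 weeks, and bone marrow cells were sorted as negative for lineage markers, CD34 and a marker the labels call Flt2, and as positive for Sca1 and c-Kit. Each of the 3 samples per genotype was a pool of about 100000 cells from 10 to 20 mice, measured on 1 Affymetrix mouse gene array, so that a value is an average over animals. The antibodies of the lineage stain were not given in the sources used here. In bulk RNA of this kind, fewer cells of a type and less RNA per cell cannot be told apart.

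T lymphocytes recognise antigen through a receptor that signals through the CD3 chains, and the coreceptors CD4 and CD8 bind MHC molecules beside it. Natural killer (NK) cells carry no such receptor: they read the balance of activating and inhibitory receptors on their surface, many of them lectin-like proteins of the Klr family, and kill through granules that hold perforin and granzymes. Activated CD8 T cells use the same granules and share several of the receptors. Mature T and NK cells are minor populations of marrow and a lineage stain is meant to exclude those that carry its markers, while stem cells and early progenitors transcribe some lymphoid genes at a low level.

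The 10 genes were sorted into 3 groups by the cells they are best known from. The group names do not mean that other cells lack these genes. The T genes are Cd3e and Cd3g, which encode CD3 chains, and Cd8a, which encodes a chain of the CD8 coreceptor. The NK genes are Klrb1c, which encodes the NK1.1 antigen, and Ncr1, which encodes the activating receptor NKp46. The last group is shared by NK cells and cytotoxic T cells: Klrk1 (the receptor NKG2D), Klrd1 (CD94, the partner chain of NKG2 receptors), Il2rb (the chain common to the IL-2 and IL-15 receptors), Nkg7 (a cytotoxic granule protein) and Gzma (granzyme A).

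Of these genes, 8 were matched to a promoter sequence from RefSeq (build GRCm38.p6). The 250 bases before the start of transcription are shown for 5 genes that shared the pattern described below, Ncr1, Klrb1c, Klrk1, Cd3e and Cd3g, because these genes moved together between pools. All are written 5′ to 3′ along the gene. In the NK group and Klrk1 the capitals mark the word TGTGGT or its reverse complement ACCACA, the core that RUNX transcription factors of lymphocytes bind.
Ncr1, chr7:4337465-4337714, plus strand: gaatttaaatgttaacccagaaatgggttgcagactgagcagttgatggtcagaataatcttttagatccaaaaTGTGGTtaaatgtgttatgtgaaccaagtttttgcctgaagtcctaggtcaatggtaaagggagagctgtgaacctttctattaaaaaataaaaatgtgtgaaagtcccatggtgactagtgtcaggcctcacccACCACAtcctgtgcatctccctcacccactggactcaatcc
Klrb1c, chr6:128788642-128788891, minus strand: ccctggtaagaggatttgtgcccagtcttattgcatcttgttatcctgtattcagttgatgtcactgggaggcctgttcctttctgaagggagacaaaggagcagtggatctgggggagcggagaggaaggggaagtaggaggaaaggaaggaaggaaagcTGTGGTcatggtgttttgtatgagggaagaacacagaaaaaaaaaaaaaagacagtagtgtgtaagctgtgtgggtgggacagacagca
Klrk1, chr6:129623865-129624114, minus strand: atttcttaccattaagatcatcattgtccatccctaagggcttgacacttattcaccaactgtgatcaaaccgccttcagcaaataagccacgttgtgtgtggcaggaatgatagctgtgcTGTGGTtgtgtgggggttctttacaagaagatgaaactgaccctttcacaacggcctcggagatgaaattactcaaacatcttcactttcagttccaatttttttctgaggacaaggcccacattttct
In the CD3 genes, which lack that word in these windows, the capitals mark AGGTGT or its reverse complement ACACCT, a core of T-box factors such as T-bet and Eomes.
Cd3e, chr9:45009612-45009861, minus strand: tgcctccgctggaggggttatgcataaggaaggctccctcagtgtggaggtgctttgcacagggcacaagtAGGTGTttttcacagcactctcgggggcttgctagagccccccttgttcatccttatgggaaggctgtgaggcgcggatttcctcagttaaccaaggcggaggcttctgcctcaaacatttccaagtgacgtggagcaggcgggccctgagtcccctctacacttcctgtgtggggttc
Cd3g, chr9:44980432-44980681, minus strand: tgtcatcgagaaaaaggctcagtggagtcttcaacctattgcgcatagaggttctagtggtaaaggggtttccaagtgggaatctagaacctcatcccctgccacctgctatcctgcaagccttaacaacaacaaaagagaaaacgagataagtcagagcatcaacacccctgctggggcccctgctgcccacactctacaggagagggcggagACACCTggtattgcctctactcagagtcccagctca
For Nkg7 and Gzma, which did not share the pattern to the same extent, 40 bases around the RUNX word are shown for comparison.
Nkg7, chr7:43437038-43437077, plus strand: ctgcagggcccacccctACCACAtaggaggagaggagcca
Gzma, chr13:113101009-113101048, minus strand: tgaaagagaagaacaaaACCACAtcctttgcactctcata
Both words were searched on both strands, and in none of the 8 genes do their matches overlap. The RUNX word was present in all 5 NK and shared genes with a sequence and in 0 of the 3 T genes, and 14.2% of 27025 RefSeq promoters of this length hold it. It begins 41 bases before the start in Ncr1, with a further copy 176 bases before it, 89 bases before the start in Klrb1c, 129 in Klrk1, 83 in Nkg7 and 50 in Gzma. The T-box word was present in 4 of the 8 genes, Cd3e, Cd3g, Nkg7 and Gzma, and in 12% of the same promoters, and the word CAGCTG of E proteins in 0 of 8 against 12.8%. In Ncr1 and Gzma the RUNX word ACCACA runs on directly into TCCT, the core that ETS factors bind (AGGA on the other strand), a join that 17 of the 27025 promoters hold on either strand (0.0629%). The words were chosen with the sequences in view, and a match is a run of letters, not a binding site. Genes with and without the pattern hold the RUNX word.

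Values are log2 expression, normalized by the authors with robust multi-array average (RMA), so that a step of 1 is a 2-fold change. As a rough guide to signal without expression, the 95th percentile of the 6-pool means of 1210 odorant and pheromone receptor probe sets was 6.93. Probes respond differently, so levels of different genes are not ranked. The means of 9 of the 10 genes lay above that guide and Gzma below it, and Cd8a, Klrd1 and Cd3g exceeded it by 0.20, 0.16 and 0.11. Against the labelled cell type, all 14 long-term HSC genes measured were above the guide in their mean, with Kit at 12.80 to 12.96, Hlf at 12.06 to 12.30 and Procr at 10.03 to 10.45 over the 6 pools. Ly6a, which encodes Sca1, was not matched to a probe set here. RNA of Cd34, a marker the gate was negative for, also lay above the guide, at 13.01 to 13.30, and so did RNA of Flt3, a receptor of multipotent and lymphoid progenitors, at 11.59 to 12.20. Lxn read 8.99, 9.09 and 9.55 in WT and 8.66, 8.78 and 8.78 in Lxn-/-, a difference of -0.47 (SE 0.14, limma adjusted p 0.993) with no overlap of the genotypes. Since the position of its probes against the deleted exons was not given in the sources used here, a remaining signal neither bears out nor contradicts the label.

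Of the 10 genes, 8 had their highest value in Lxn-/- replicate 2. For 6 of them, Cd3g, Klrb1c, Ncr1, Klrk1, Klrd1 and Il2rb, that pool lay at least 0.5 above every other pool, and Cd3e led by 0.46. The exceptions were Cd8a, which was nearly flat, Gzma, which was highest in WT replicate 1, and Nkg7, which was highest in Lxn-/- replicate 2 by only 0.082. Over all 23410 probe sets tested, Lxn-/- replicate 2 was the highest pool in 11.9%, and the highest by at least 0.5 in 34, or 0.145%. WT replicate 1 was the highest in 15.3% and WT replicate 3 in 24.6%. The step of 0.5 was chosen after the values were seen, and these counts describe single pools, with no test.

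**Figure D1:**
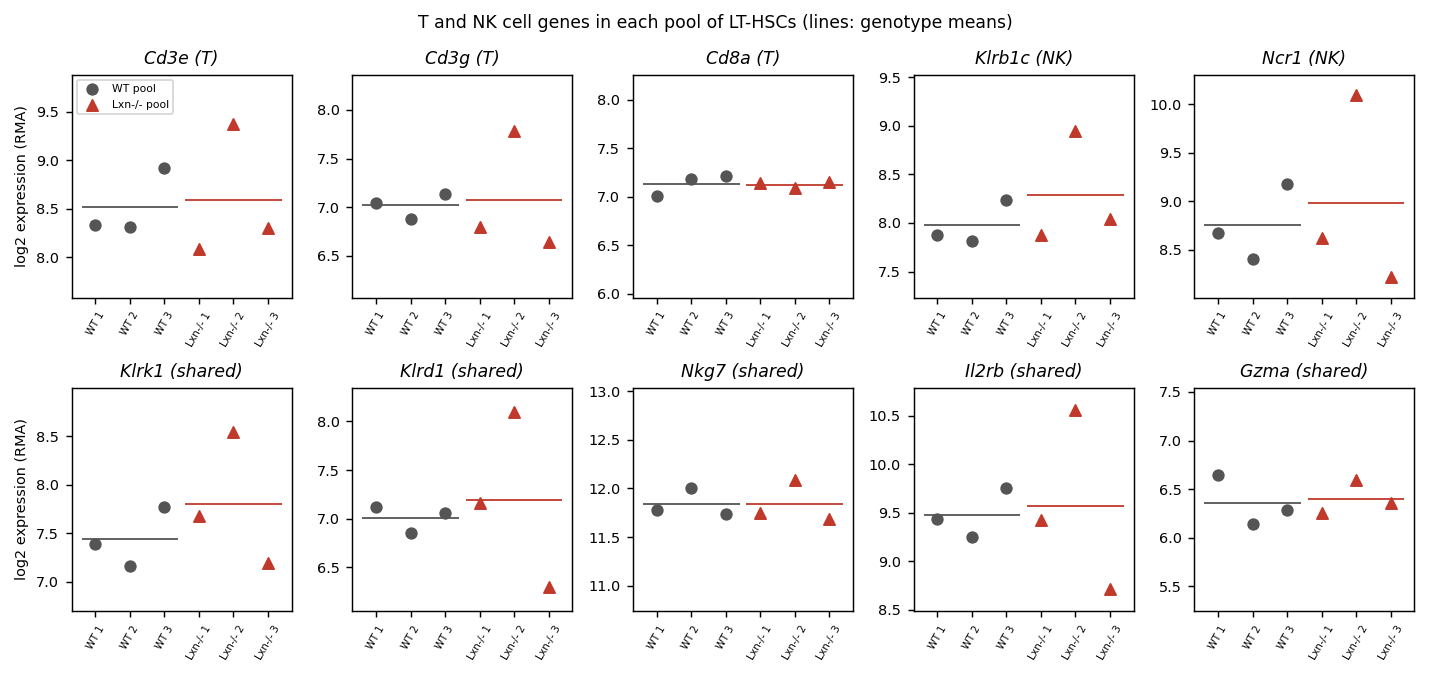
Log2 expression (RMA, vertical axis, each panel spanning 2.3 log2 units) of the 10 T and NK cell genes in each pool (horizontal axis); circles are WT pools, triangles Lxn-/- pools and lines the genotype means. Lxn-/- replicate 2 stands above the other pools for Cd3e, Cd3g, Klrb1c, Ncr1, Klrk1, Klrd1 and Il2rb, while the 6 values of Cd8a lie within 0.21.

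Among the T genes, Cd3e gave 8.33, 8.31 and 8.92 in the WT pools, in the order of their replicate numbers, and 8.09, 9.38 and 8.30 in the Lxn-/- pools. Values of other genes follow the same order. Lxn-/- replicate 2 was highest, WT replicate 3 came next, and the other 4 pools lay below both, so that the genotypes overlapped. Cd3g read 7.04, 6.87 and 7.14 in WT and 6.79, 7.79 and 6.64 in Lxn-/-. It had the same highest pool and the same next one, but WT replicate 3 rose above the median of the 6 pools by 0.18, against 0.59 for Cd3e. Cd8a read 7.00, 7.18 and 7.22 in WT and 7.14, 7.09 and 7.15 in Lxn-/-. Its range over the Lxn-/- pools, 0.059, exceeded that of only 8.73% of probe sets, whereas those of Cd3e (1.29) and Cd3g (1.15) exceeded 99.6% and 99.4%. Within the T genes, the CD3 chains were high in Lxn-/- replicate 2 and the CD8 chain was not.

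Among the NK genes, Ncr1 read 8.67, 8.41 and 9.18 in WT and 8.62, 10.09 and 8.22 in Lxn-/-. The highest and the lowest pool were both Lxn-/-, replicates 2 and 3, with 3.68-fold between them, and WT replicate 3 was second. Klrb1c read 7.88, 7.81 and 8.24 in WT and 7.87, 8.95 and 8.05 in Lxn-/-. Lxn-/- replicate 2 stood 1.63-fold above the next pool, WT replicate 3, and the remaining pools read 7.81 to 8.05. Averaged over both NK genes, Lxn-/- replicate 2 lay 1.22 above the median of the 6 pools, WT replicate 3 lay 0.41 above it, and the remaining pools lay between -0.20 and -0.029.

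Of the shared receptors, Klrk1 read 7.39, 7.16 and 7.77 in WT and 7.68, 8.54 and 7.19 in Lxn-/-. Klrd1 read 7.12, 6.85 and 7.06 in WT and 7.16, 8.10 and 6.29 in Lxn-/-, and Il2rb read 9.44, 9.25 and 9.75 in WT and 9.42, 10.56 and 8.72 in Lxn-/-. All 3 were highest in Lxn-/- replicate 2, and Klrd1 and Il2rb were also lowest in Lxn-/- replicate 3, by 0.56 and 0.54 below the next pool. WT replicate 3 was second for Klrk1 and Il2rb, while for Klrd1 both replicates 1 read higher than it did. The spread over the Lxn-/- pools was 3.50-fold for Klrd1 and 3.58-fold for Il2rb, against 1.32-fold for Nkg7.

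For the granule genes the pools lay closer together. Nkg7 read 11.78, 12.00 and 11.74 in WT and 11.75, 12.09 and 11.69 in Lxn-/-, with Lxn-/- replicate 2 and WT replicate 2 highest. Gzma read 6.65, 6.14 and 6.28 in WT and 6.25, 6.60 and 6.35 in Lxn-/-, with WT replicate 1 and Lxn-/- replicate 2 highest. The Lxn-/- pools of Nkg7 spanned 0.40 and those of Gzma 0.35, and all 6 values of Gzma lay below the guide level of 6.93.

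The pools that carried each group were thus Lxn-/- replicate 2 for all of the 7 genes with a large spread, with WT replicate 3 next for 6 of them. Over all probe sets tested, deviations of these pools from their genotype means also correlated, at 0.36. The share of all probe sets with that order was not counted. Averaged over Cd3e and Cd3g, the deviation from the median of the 6 pools was 0.94 in Lxn-/- replicate 2 and 0.39 in WT replicate 3. Averaged over Klrk1, Klrd1 and Il2rb, it was 1.05 and 0.18 in the same pools, and -0.62 in Lxn-/- replicate 3, where the CD3 genes stood at -0.17. Of the 10 genes, 5 were highest in Lxn-/- replicate 2 and lowest in Lxn-/- replicate 3, an order found in 3.8% of all probe sets, of which 16.9% were lowest in that last pool.

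**Figure D2:**
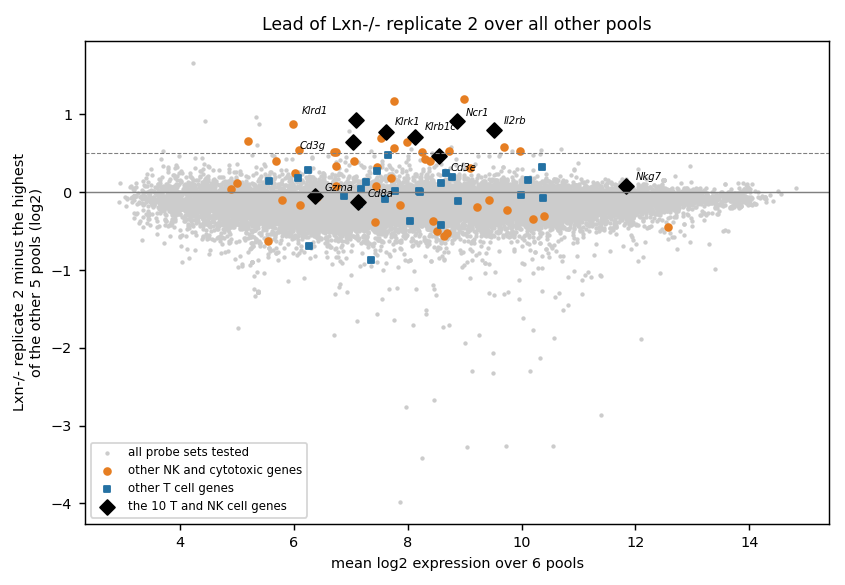
Each point is 1 probe set: the horizontal axis is its mean log2 expression over the 6 pools, and the vertical axis is its log2 value in Lxn-/- replicate 2 minus the highest of the other 5 pools. Of 23410 probe sets (grey), 34 lie above the dashed line at 0.5, among them 6 of the 10 T and NK cell genes (diamonds), 14 of 43 other NK and cytotoxic genes (circles) and 0 of 25 other T cell genes (squares).

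Between genotypes, no difference of the 10 genes passed the test. No probe set of 23410 passed an adjusted p of 0.05 in limma, a background of 0%, and so 0 of the 10 passed. At an unadjusted p under 0.05, limma gave 914 probe sets (3.9%) and again 0 of the 10, and the values of the 2 genotypes did not overlap in 8.98% of probe sets and in 0 of the 10. The median difference over all probe sets was -0.0099.

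The largest differences were those of Klrk1, 0.37 (SE 0.31, 95% confidence interval -0.36 to 1.09), and Klrb1c, 0.31 (SE 0.26, interval -0.29 to 0.92), both with a limma adjusted p of 0.993. The mean of Klrk1 was 7.44 ± 0.31 (SD, n = 3) for WT pools and 7.80 ± 0.68 (SD, n = 3) for Lxn-/- pools. That of Klrb1c was 7.98 ± 0.23 (SD, n = 3) for WT pools and 8.29 ± 0.58 (SD, n = 3) for Lxn-/- pools. The exact two-sided permutation p was 0.6 for both, where 3 pools against 3 cannot give less than 0.1. Ncr1, Klrd1 and Il2rb had differences of 0.22, 0.18 and 0.084, with intervals of -0.79 to 1.24, -0.70 to 1.05 and -0.84 to 1.01. Their SDs were 0.99, 0.90 and 0.93 in Lxn-/- and 0.39, 0.14 and 0.25 in WT. Cd3e and Cd3g differed by 0.069 and 0.057, with intervals of -0.67 to 0.81 and -0.56 to 0.68. The tightest intervals were those of Cd8a (-0.0071, -0.18 to 0.17), Nkg7 (-0.0013, -0.28 to 0.28) and Gzma (0.043, -0.29 to 0.37). Adjusted p-values of the 10 genes in limma ran from 0.993 to 0.999, and exact permutation p-values from 0.6 to 1.

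The direction of these differences depended on single pools. With all 6 pools 8 of the 10 genes were higher in Lxn-/-, where 45.5% of all probe sets were, and without Lxn-/- replicate 2 only Cd8a was (0.011). Without that pool Cd3e differed by -0.33, Cd3g by -0.30, Ncr1 by -0.34, Klrd1 by -0.28 and Il2rb by -0.41, while Klrb1c and Klrk1 stood at -0.018 and -0.0014. Lxn-/- replicate 2 was the highest Lxn-/- pool for every gene but Cd8a, where it was the lowest, so these shifts follow by arithmetic. Without it Cd3g had an interval of -0.54 to -0.055 and a limma adjusted p of 0.972. The pool was singled out for its high values, so that interval does not test the genotypes. Leaving out WT replicate 2 also turned the sign of 6 genes, to -0.035 for Cd3e, -0.016 for Cd3g, -0.028 for Il2rb, -0.065 for Gzma, 0.016 for Cd8a and 0.079 for Nkg7. Leaving out WT replicate 1 turned Cd3e (-0.025), WT replicate 3 turned Cd8a (0.034), and Lxn-/- replicates 1 and 3 each turned Nkg7 (0.044 and 0.076). Without Lxn-/- replicate 3 the differences of Ncr1, Klrk1, Klrd1 and Il2rb grew to 0.60, 0.67, 0.62 and 0.51.

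**Figure D3:**
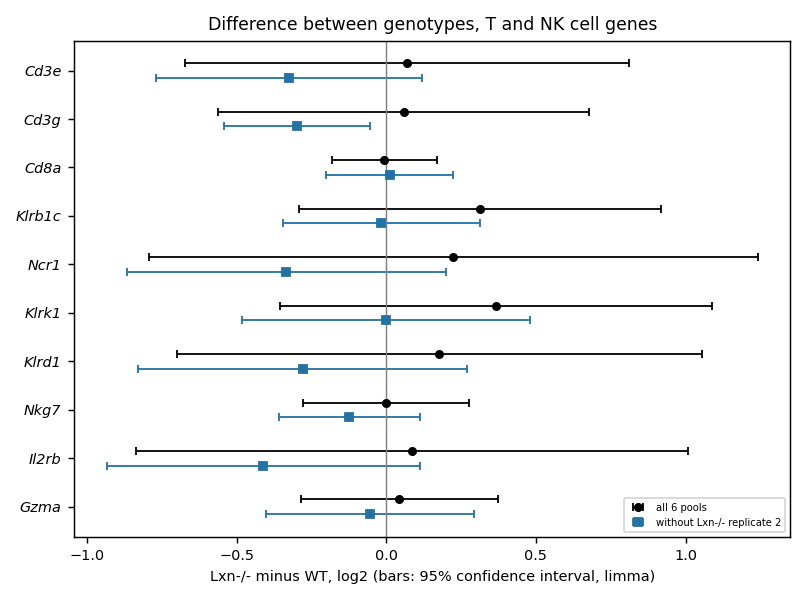
Difference in log2 expression, Lxn-/- minus WT (horizontal axis), for each gene (vertical axis), from limma on all 6 pools (circles) and without Lxn-/- replicate 2 (squares); bars are 95% confidence intervals. The intervals over 6 pools all include 0. The points of 9 genes move to the left without that pool, with Cd8a the exception. Since it was the highest Lxn-/- pool of those 9 genes and the lowest of Cd8a, these shifts follow by arithmetic.

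Other genes of the 2 cell types were read as lists. Of 48 other NK and cytotoxic genes 43 were measured, of which 33 were higher and 10 lower in Lxn-/- with 0 past an adjusted p of 0.05 and 0 at an unadjusted p under 0.05 in limma, and a median difference of 0.084. Without Lxn-/- replicate 2 the median was -0.11 and 13 were higher. That pool held the highest value of 27 of the 43, and led by at least 0.5 in 14, against 0.145% of all probe sets. Of 28 other T cell genes 25 were measured, 9 higher and 16 lower with a median of -0.022, 0 past an adjusted p of 0.05 and 1 at an unadjusted p under 0.05 in limma. Lxn-/- replicate 2 was the highest pool for 15 of the 25, but led by at least 0.5 in 0 of them. Whether the lists differed in this was not tested.

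Several chemokines and cytokines of NK cells had a long lead. Xcl1, a chemokine that NK and CD8 T cells secrete to attract dendritic cells, read 8.99, 8.67 and 8.49 in WT and 9.14, 10.34 and 8.35 in Lxn-/-. Ccl5, a chemokine of NK and memory T cells, read 9.93, 9.71 and 10.16 in WT and 9.83, 10.69 and 9.53 in Lxn-/-. Ifng, the gene of interferon gamma, read 7.37, 7.33 and 7.49 in WT and 7.51, 8.20 and 7.26 in Lxn-/-. For all 3, Lxn-/- replicate 2 stood above the other 5 pools by at least 0.5. The macrophage chemokine genes Ccl3 and Ccl4, which NK cells also make, did not share this, with 12.39 and 8.48 in that pool, below 4 and 4 of the other pools.

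Further genes of the NK list are given by pool. Klrc1, which encodes the NKG2A chain that pairs with the product of Klrd1, read 7.71, 7.60 and 7.66 in WT and 7.60, 8.88 and 7.08 in Lxn-/-. Tbx21, which encodes T-bet, read 8.30, 8.07 and 8.31 in WT and 8.21, 8.83 and 7.83 in Lxn-/-, and Eomes, the related T-box factor, read 7.46, 7.47 and 7.64 in WT and 7.36, 7.96 and 6.89 in Lxn-/-. Both factors were highest in Lxn-/- replicate 2 and lowest in Lxn-/- replicate 3. Prf1, perforin, read 7.76, 7.53 and 7.75 in WT and 7.71, 7.93 and 7.62 in Lxn-/-. Fasl, a death ligand that killer cells carry, led in Lxn-/- replicate 2 by 0.51, while Gzmb, granzyme B, was highest in Lxn-/- replicate 1, at 8.84, and read 8.34 in replicate 2. Of the 43 genes, 15 had means below the guide level. Fasl was among them, as were Klrb1a, Klri2, Cd160 and Sh2d1a, which Lxn-/- replicate 2 also led by at least 0.5. Klr genes include near-identical copies, and where their probe sets could read each other's RNA the single gene is uncertain.

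Among the other T cell genes, WT replicate 3 was the second highest pool for 12 of the 25 and the highest for 4. It was the highest in 24.6% of all probe sets, and how often it was second was not counted. Cd4, the coreceptor of helper T cells, read 8.01, 8.01 and 8.60 in WT and 7.97, 8.62 and 8.03 in Lxn-/-, so that WT replicate 3 and Lxn-/- replicate 2 were alike and the other 4 pools lower. Il7r, the receptor of a survival factor of lymphocytes and innate lymphoid cells, was highest in WT replicate 3 (10.88), followed by Lxn-/- replicate 2 (10.81). Thy1, Icos and Skap1 had Lxn-/- replicate 2 highest, at 9.30, 9.17 and 8.28, and WT replicate 3 next. Cd3d, the remaining CD3 chain of this locus, had Lxn-/- replicate 2 highest too, at 6.68, and its mean lay below the guide level. Lat, Cd5, Cd247 and Cd8b1, which encode a signalling adaptor, a surface receptor, the CD3 zeta chain and the partner of Cd8a, spanned 0.16 or less over the 6 pools.

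**Figure D4:**
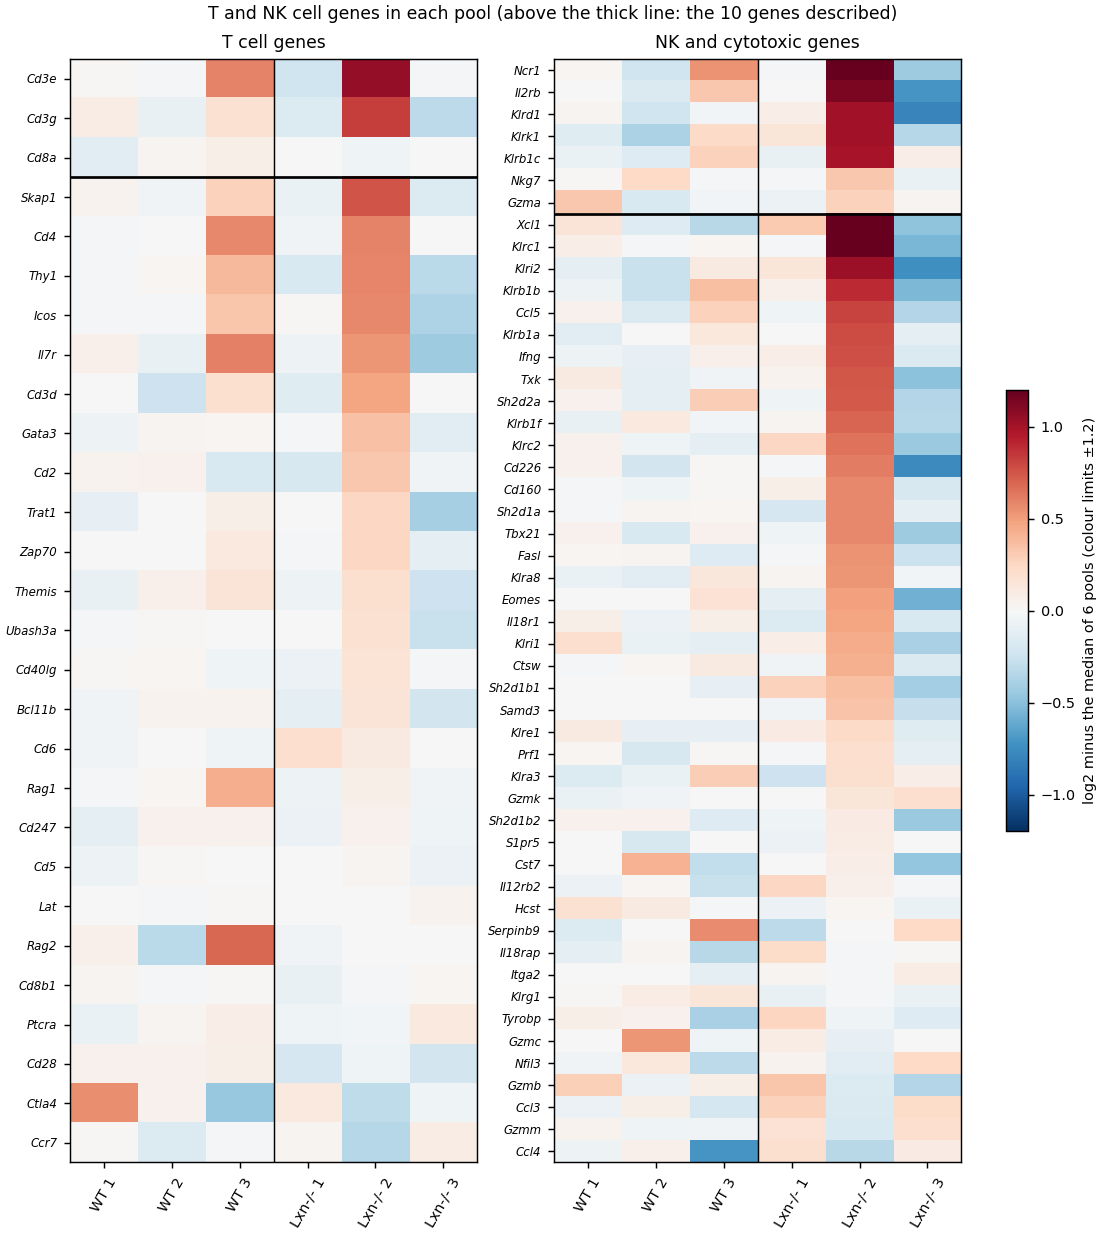
Log2 expression of each gene (rows) in each pool (columns) minus the median of its 6 pools, in colour (log2, limits at 1.2 either way); the 10 genes described stand above the thick lines and the other genes of each list below, ordered by their value in Lxn-/- replicate 2. Lxn-/- replicate 2 is the highest pool for 27 of the 43 other NK genes and 15 of the 25 other T genes, and WT replicate 3 is second for 8 and 12 of them. How often WT replicate 3 was second over all probe sets was not counted.

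By the rule for naming genes of these lists, those of lowest unadjusted p were Klrg1 (-0.14), Gzmk (0.16), Il12rb2 (0.20) and Il18rap (0.21) among the NK genes. Klrg1 is an inhibitory receptor of mature NK cells, Gzmk a granzyme, and the others encode chains of the IL-12 and IL-18 receptors. Among the T genes they were Cd28 (-0.21), Cd6 (0.14), Rag1 (-0.16) and Cd3d (0.13). Cd28, the costimulatory receptor, read 8.99, 8.99 and 9.01 in WT and 8.75, 8.89 and 8.72 in Lxn-/- without overlap, with a limma adjusted p of 0.993.

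Neighbours on the chromosome were read for comparison. Klrb1c, Klrd1 and Klrk1 lie in the NK gene complex of chromosome 6, and from Klrb1c to Klrk1 the annotation places 23 protein-coding genes, of which 21 were measured. All 6 Klr genes there had their highest value in Lxn-/- replicate 2, 5 of them by at least 0.5. Of the 11 Clec genes between them, which encode lectins of myeloid and other cells, 1 did (Clec1b, 6.93), and of the 4 other genes, Cd69, Olr1, Tmem52b and Gabarapl1, 0 did. The block was chosen after the values were seen. On chromosome 9, the CD3 genes lie side by side in the order Cd3g, Cd3d, Cd3e. With 5 genes on each side, 4 of 13 genes were highest in that pool, the 3 CD3 genes and Mpzl3, which led by 0.011.

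The 34 probe sets led by Lxn-/- replicate 2 by at least 0.5 included 12 with Klr symbols. Beside 6 of the 10 genes and 14 of the other NK list, there were 4 more probe sets of Klr genes, Klrc3 and 3 that read several Klra genes. These 4 read below the guide level of 6.93 in every pool. The remaining 10 were Trdn, Ms4a4b, Il2ra, Ighg3, Spic, Snora73b, Vmn1r23, Hmox1, Olfr248 and Gimap3. Trdn, which encodes the muscle protein triadin, had the longest lead of all, 1.67, with 5.90 against 4.23 in the next pool. It too read below the guide level in every pool. Il2ra, a chain of the IL-2 receptor beside Il2rb, read 9.57 in that pool and 8.10 to 8.99 in the others.

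Genes were also ranked by how near their 6 centred values lay to the mean centred profile of the T genes, and to that of the other 7 genes together, by root mean square distance over the 6 pools among 19928 genes. For the T genes, the nearest were Maf (0.039), Colec12 (0.050), Mgp (0.066), Skap1 (0.067) and Cyp1b1 (0.081). For the NK and shared genes, they were Ccl5 (0.054), Ms4a4b (0.072), Sh2d2a (0.085), Skap1 (0.10) and Ifng (0.11). Ccl5, Sh2d2a and Ifng belong to the NK list and Skap1 to the T list. With 6 pools, near profiles arise easily among so many genes, and the ranking is a description of these arrays.

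Markers of other blood cells also differed between these pools. The 16 neutrophil markers lay on average 0.78 below the median of the 6 pools in Lxn-/- replicate 2, 1.26 below it in WT replicate 3 and 0.79 above it in Lxn-/- replicate 3. In the same pools the 43 other NK genes stood at 0.37, -0.022 and -0.20, and the 25 other T genes at 0.20, 0.14 and -0.11. The summed linear signal of the neutrophil markers was 28927 to 50575 in WT and 40026 to 55471 in Lxn-/-. The 12 measured erythroid markers stood at 0.46 in WT replicate 3, 0.22 in Lxn-/- replicate 2 and -0.42 in Lxn-/- replicate 3, with summed signals of 27625 to 38121 in WT and 23687 to 34646 in Lxn-/-. The 9 mast cell and basophil markers were at -0.58 in Lxn-/- replicate 3. No gene of these 3 lists, nor of the B cell, plasma cell or long-term HSC list, was led by Lxn-/- replicate 2 by 0.5. The lists do not hold every gene of these cells. Ighg3, an immunoglobulin heavy chain gene outside them, was led by that pool by 0.56, and Spic and Hmox1, also outside them, by 0.56 and 0.53. The HSC genes stood between -0.12 and 0.13 in all pools. Of 13 innate lymphoid cell and lymphoid progenitor genes measured, 7 were highest in Lxn-/- replicate 2, 1 of them by at least 0.5. Of 15 monocyte, macrophage and dendritic cell markers measured, 5 were highest there and 0 by 0.5. Among all probe sets 11.9% were highest in that pool. Of 17 B cell markers 16 were lower in Lxn-/- (median -0.35), and of 12 plasma cell markers all 12 were (median -0.48), beside 9 of 25 other T genes higher and 33 of 43 other NK genes higher. Summed signals of the B cell list were 16447 to 24217 in WT and 14309 to 17228 in Lxn-/-, and those of the plasma cell list 27024 to 35394 and 22700 to 23791. No marker of any list is listed at 0. The part of these other cells in the T and NK values was not tested.

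**Figure D5:**
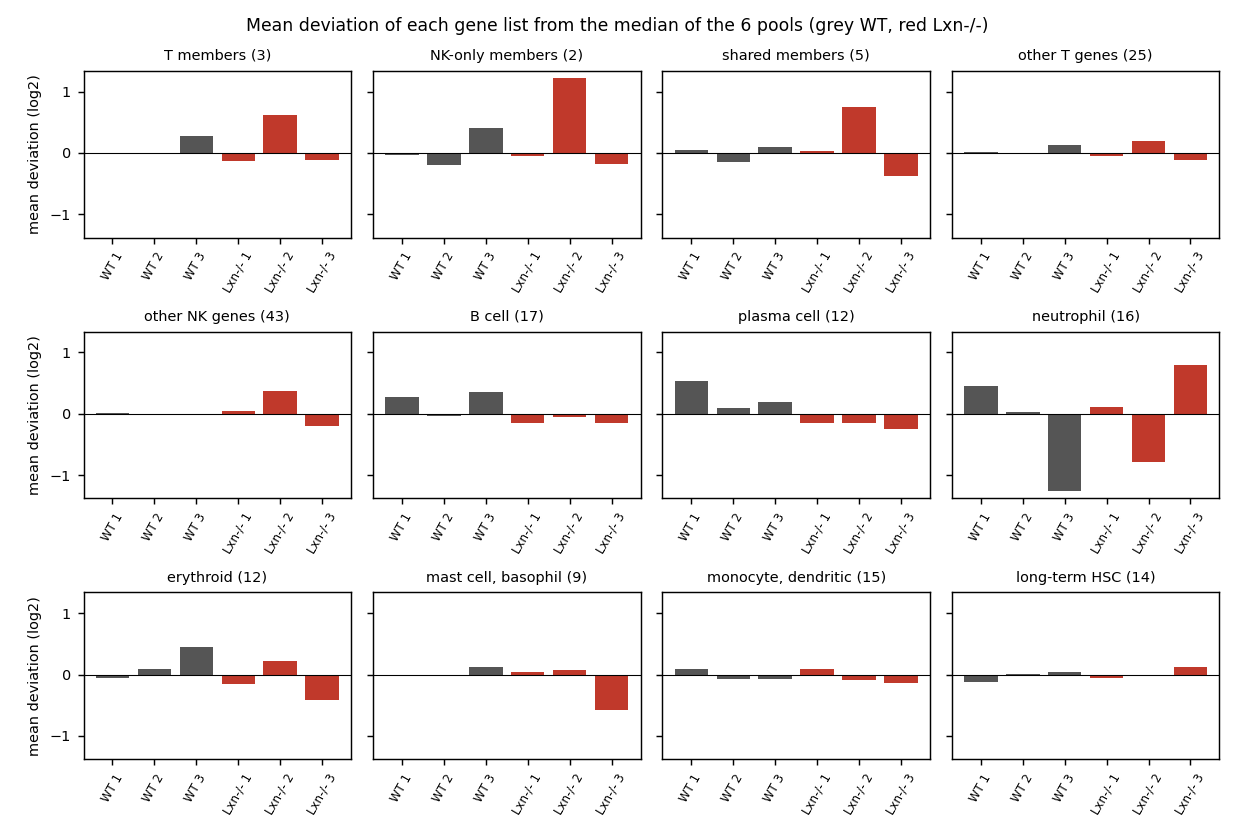
Mean deviation of each gene list from the median of the 6 pools (log2, vertical axis) in each pool (horizontal axis; grey bars WT, red bars Lxn-/-), with the number of genes measured in parentheses. Klrb1c and Ncr1, titled NK-only in the figure though not shown to be exclusive to NK cells, stand at 1.22 in Lxn-/- replicate 2. In that pool the neutrophil markers are at -0.78 and the long-term HSC genes near 0.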

How the data were processed

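Total RNA of 6 pools of sorted LT-HSCs was measured on arrays, 3 per genotype. The values are log2 expression that the authors normalized by RMA and deposited, per the submitters' processing notes and design text; the former also name Partek 6.0. How background was handled and how probes were grouped was not given in the sources used here. Of 35557 probe sets deposited, the platform annotation gave 21789 a single symbol, 1621 several and 12147 none, and the 23410 with a symbol were tested. A gene with several probe sets was read from the brightest by mean over the 6 arrays.

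Genotypes were compared with limma 3.58.1 (lmFit and eBayes, R 4.3.3) on all 6 arrays without covariates, two-sided, with Benjamini-Hochberg adjustment over all probe sets tested and a threshold of 0.05. Differences are Lxn-/- minus WT, and SE is limma's moderated standard error. Single genes were also compared by an exact permutation test. The number of arrays limits the precision, and p-values measure the spread between pools. This fit was first tested on simulated data with independent noise for each probe set and array. Such data lack deviations that many genes of a pool share, so the test does not cover them. Named were the 10 genes, from each T or NK list the 4 genes of lowest unadjusted p where none passed, and the 5 genes of nearest profile. Other genes were chosen after their values were seen. The genes, lists and tests were chosen with earlier results of these data known. Other settings tried were scaling, array weights, a replicate block, filters, the variance prior and leaving out each array.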

Additional observations from a re-analysis of the deposited data

How the results depend on the processing

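No probe set passed in limma under any of the 7 other fits or with any array left out (0 each, against 0 with all arrays). Fits that weighted or rescaled the arrays kept the direction of the 10 genes, except that Nkg7 moved from -0.0013 to 0.012 with quantile normalization. Blocking by replicate and filtering probe sets cannot change a difference, so their directions add nothing here. Array weights gave differences of larger size for all 10 genes. They were Klrk1 (0.53), Klrb1c (0.35), Il2rb (0.24), Ncr1 (0.40), Klrd1 (0.32), Cd3e (0.11), Cd3g (0.12), Gzma (0.13), Cd8a (-0.030) and Nkg7 (-0.089). Quantile normalization gave 0.023 for Cd3e, 0.032 for Cd3g and -0.031 for Cd8a. With single arrays left out, differences ranged from -0.33 to 0.32 for Cd3e, -0.30 to 0.27 for Cd3g, -0.072 to 0.034 for Cd8a, -0.018 to 0.52 for Klrb1c, -0.34 to 0.60 for Ncr1, -0.0014 to 0.67 for Klrk1, -0.28 to 0.62 for Klrd1, -0.12 to 0.079 for Nkg7, -0.41 to 0.51 for Il2rb and -0.065 to 0.19 for Gzma. List medians ranged from -0.30 to 0.21 for the T genes, -0.18 to 0.52 for the NK genes, -0.12 to 0.51 for the shared genes, -0.10 to 0.040 for other T genes and -0.11 to 0.19 for other NK genes.

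The replicate block cannot change a difference, since every replicate number holds a pool of each genotype. With it 0 probe sets passed (1173 at an unadjusted p under 0.05 in limma). Deviations of same-numbered pools correlated at 0.37, -0.072 and -0.081, and those of WT replicate 3 and Lxn-/- replicate 2 at 0.36. With 3 pools per genotype these values cannot decide whether the numbers pair the pools. After the data were seen, the lead of Lxn-/- replicate 2 was recounted. With quantile normalization it was highest for 9 of the 10 genes, 10 of 25 other T genes and 26 of 43 other NK genes. With a common median it was highest for 8, 12 and 27. Over all probe sets that pool was highest in 10.5% with quantile normalization and in 10.1% with a common median. The lead was at least 0.5 for 6 of the 10 genes and 0 of the other T genes under both, and for 11 and 12 of the other NK genes. Over all probe sets such a lead was found in 0.137% and 0.132%. Gzma dropped out when dim probe sets were removed.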
